A study of Mus musculus with 6 samples.

Results

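The genes described here mark the neural crest and the glial precursors that arise from it. They are *Sox10*, *Foxd3*, *Tfap2a*, *Tfap2b*, *Ngfr*, *Fabp7* and *S100b*, 7 genes chosen by name and found in the count table by their Ensembl identifiers. Of these, 6 had a row among the 28777 genes listed, and all 6 passed the filter on low counts with the 28157 genes that were tested. *Foxd3* had no row in the table and was not analysed here. No listed gene has fewer than 5 reads over all libraries, and whether *Foxd3* is missing for low counts is not known.

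The libraries hold RNA of the cardiac outflow tract (OFT) of E13.5 mouse embryos, with 3 libraries labelled Notch1-het; Nos3- null (mutant) and 3 labelled wildtype. The mutant label stands for Notch1+/-; Nos3-/- embryos of knockout strains and the wildtype label for Notch1+/+; Nos3+/+ littermates, all on a C57/BL6J background, and the alleles are not restricted to a cell type. Each library was made from the pooled OFTs of 3 embryos, 18 OFTs in all. The tissue was not sorted, so p-values measure the spread between pools of whole tracts. Total counts ranged from 34729103 to 44387490 per library.

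The targeted genes did not both follow their labels. *Nos3* had 20.4 to 22.1 CPM (counts scaled to 1e6 per library after TMM normalisation) under the mutant label and 31.8 to 48.1 CPM under the wildtype label. *Notch1* had 139 to 161 CPM under the mutant label and 74.3 to 88.2 CPM under the wildtype label, higher where 1 allele is null. In edgeR's test the adjusted p was 0.0313 for *Notch1* and 0.128 for *Nos3*, so only *Notch1* passed the threshold of 0.05. The groups are therefore named by their labels, and higher or lower means between labels. Titles and descriptions exchange the library numbers of wildtype replicates 2 and 3, so these numbers are those of the titles and may be crossed, within the same group. Over all genes 6 were called with all libraries and 2593 without wildtype replicate 1, which is 9.45% of the genes tested in that fit, with 4.15% called as higher. Leaving out any other library gave 1 to 3 calls, so the fit without wildtype replicate 1 is the extreme case. The calls of each list in that fit are given beside its other counts.

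Neural crest cells leave the dorsal neural tube and migrate through the pharyngeal arches into the outflow tract, where they take part in septation and smooth muscle of the great arteries. Some of them follow nerves into the heart as Schwann cell precursors, which give rise to glia and to cells of the cardiac ganglia. *Sox10* and *Foxd3* encode transcription factors that keep crest cells in a progenitor state and, in the glial lineage, direct the Schwann fate. *Tfap2a* and *Tfap2b* encode AP-2 factors of the neural plate border and premigratory crest, and AP-2β is also known from the smooth muscle of the ductus arteriosus. *Ngfr* encodes the low-affinity neurotrophin receptor p75, *Fabp7* a brain-type fatty acid binding protein of radial glia and Schwann precursors, and *S100b* a calcium-binding protein of glia.

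The promoters of 3 members are shown because they contrast in their values and in a sequence bound by RBPJ, the DNA-binding partner of the Notch receptors. Each is the RefSeq window of GRCm38.p6 from 250 bases before to 50 bases after the transcription start, on the strand of the gene, with the letters TGGGAA or their reverse complement in capitals.
*Fabp7*, chr10:57784673-57784972, plus strand: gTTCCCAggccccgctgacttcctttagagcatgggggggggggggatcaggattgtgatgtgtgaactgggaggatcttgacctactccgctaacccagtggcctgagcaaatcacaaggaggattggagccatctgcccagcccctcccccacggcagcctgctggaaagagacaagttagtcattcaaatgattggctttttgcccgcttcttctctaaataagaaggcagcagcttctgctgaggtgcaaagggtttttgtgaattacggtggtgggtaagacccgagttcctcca
*S100b*, chr10:76253586-76253885, plus strand: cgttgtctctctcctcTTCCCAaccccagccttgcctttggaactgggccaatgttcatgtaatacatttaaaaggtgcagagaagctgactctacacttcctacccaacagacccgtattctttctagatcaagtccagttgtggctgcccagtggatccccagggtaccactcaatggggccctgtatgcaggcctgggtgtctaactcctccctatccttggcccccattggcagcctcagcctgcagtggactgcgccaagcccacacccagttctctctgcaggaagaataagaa
*Ngfr*, chr11:95587649-95587948, minus strand: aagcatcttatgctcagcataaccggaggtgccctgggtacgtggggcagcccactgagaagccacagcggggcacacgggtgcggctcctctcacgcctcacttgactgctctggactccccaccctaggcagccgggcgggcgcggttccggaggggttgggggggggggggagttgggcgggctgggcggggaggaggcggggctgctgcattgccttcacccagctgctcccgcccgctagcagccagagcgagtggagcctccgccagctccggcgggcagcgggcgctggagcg

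The letters TGGGAA were found on either strand in 25.6% of 32851 promoter windows of this length. Among the windows of the members they occurred in *Fabp7* (first base 249 bases before the start), in *S100b* (234 bases before) and in 1 of 2 windows of *Tfap2a* (13 bases before). The windows of *Ngfr*, *Tfap2b* and *Foxd3* did not hold them. An AP-2 motif, GCCNNNGGC, occurs in 16.6% of all windows, and a SOX motif, ACAAAG, in 18.7%, and neither was found in any window of the members. RefSeq windows were found for 6 of the 7 members, and none for *Sox10*. These matches describe the letters of the windows and not binding.

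The levels of the members were low throughout. Per kilobase of exon, *Ngfr* stood highest, with 1.84 ± 0.567 CPM per kb (SD, n = 3) under the wildtype label and 2.60 ± 0.259 (SD, n = 3) under the mutant label. *Fabp7* followed with 0.972 ± 0.564 and 0.878 ± 0.404 CPM per kb (SD, n = 3 each) in the same order of labels. *S100b* had 0.258 ± 0.0996 and 0.538 ± 0.271 CPM per kb, *Sox10* 0.175 ± 0.0565 and 0.317 ± 0.0796, and *Tfap2a* 0.0731 ± 0.0261 and 0.108 ± 0.0242 (SD, n = 3 each). *Tfap2b* was lowest, from 0 to 0.0209 CPM per kb over the libraries. Ranges over the 6 libraries overlapped between each gene and the next in this order, except that *Tfap2a* (0.0566 to 0.136) lay above *Tfap2b* in every library. *Ngfr* alone made up 62.7% to 79.1% of the summed CPM of the members.

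Few reads lie behind most of these values. *Sox10*, a gene of crest cells and of their glial lineage, had between 14 and 47 reads per library. Its lowest count has a 95% Poisson interval of 7.65 to 23.5 reads. In the same libraries the neuregulin receptor gene *Erbb3* had 575 to 1272 reads (16.8 to 32.2 CPM). Per kilobase of exon this was 2.795 to 5.349 CPM, against 0.1105 to 0.4086 CPM for *Sox10*. *Erbb3* was singled out after its values were seen because it also marks Schwann precursors. *Erbb3* is also known from endocardial cushion mesenchyme, and *Ngfr* from mesenchymal cells, so neither stands for glia alone. Such intervals, and the floor of 3 counts per library used for single genes (0.0675 to 0.0924 CPM), cover counting error only.

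*Sox10* (ENSMUSG00000033006) lies on chromosome 15 of mm10 from 79154908 to 79165240, on the minus strand. It had 0.652, 0.337 and 0.616 CPM in wildtype replicates 1, 2 and 3, and 0.825, 0.827 and 1.25 CPM in mutant replicates 1, 2 and 3. All libraries labelled mutant were above all labelled wildtype, with mutant replicate 3 highest. In edgeR's quasi-likelihood fit, whose p-values were adjusted by the Benjamini-Hochberg method here and throughout, *Sox10* had a log2 fold change of 0.85 with a 95% interval of 0.002 to 1.70 (SE 0.38, edgeR adjusted p = 0.310), short of the threshold. In a bulk sample, more cells of a type cannot be told apart from more RNA per cell, here and in the values that follow.

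The AP-2 genes were the least abundant members. *Tfap2a* (ENSMUSG00000021359, chromosome 13, 40715302 to 40738376) had 0.292, 0.506 and 0.277 CPM in wildtype replicates 1, 2 and 3, and 0.475, 0.667 and 0.451 CPM in the mutant replicates. Wildtype replicate 2 lay above 2 of the 3 libraries labelled mutant, so the groups overlapped. Its log2 fold change was 0.55 (95% interval −0.43 to 1.54, edgeR adjusted p = 0.569), with 0.36 when mutant replicate 2 was left out and 0.89 without wildtype replicate 2. Annotated antisense genes cross *Tfap2a*, but those with a row, *Gm26688* and *Gm47061*, had mean levels of 0.0347 and 0.0386 CPM. *Tfap2b* (ENSMUSG00000025927, chromosome 1, 19208914 to 19238576) had 0, 2 and 3 reads in the wildtype replicates and 0, 0 and 5 reads in the mutant replicates. With 5 reads in each group, its ratio of mutant to wildtype label was 1.03 with an exact 95% counting interval of 0.237 to 4.47. That interval pools the libraries and leaves out the spread between them. The 95% interval of the fold from edgeR was 0.0728 to 13.3, and no difference was detectable at this depth.

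*Ngfr* (ENSMUSG00000000120, chromosome 11, 95568818 to 95587735, minus strand) was the member measured with the most reads, 133 to 374 per library. In wildtype replicates 1, 2 and 3 it had 7.33, 7.61 and 4.10 CPM, and in mutant replicates 1, 2 and 3 it had 8.27, 9.98 and 8.67 CPM. The groups did not overlap, and wildtype replicate 3 was the lowest library. The log2 fold change of *Ngfr* was 0.49 with a 95% interval of 0.015 to 0.97 (SE 0.22, edgeR adjusted p = 0.299), short of the threshold. Without wildtype replicate 3 it was 0.26, and with the mean of 10 myocardial marker genes as a covariate it was 0.21 (edgeR adjusted p = 0.905).

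The glial genes *S100b* and *Fabp7* did not share a pattern. *S100b* (ENSMUSG00000033208, chromosome 10, 76253853 to 76261159) had 0.540, 0.361 and 0.247 CPM in the wildtype replicates and 1.224, 0.427 and 0.743 CPM in the mutant replicates. Mutant replicate 1 was above the other 5 libraries, and mutant replicate 2 lay below wildtype replicate 1. Its log2 fold change of 1.04 (95% interval −0.029 to 2.11, edgeR adjusted p = 0.323) was 0.59 without mutant replicate 1. *S100b* shares 1731 bases with *Dip2a* on the other strand, a gene with a mean of 52.4 CPM, and whether the counting used the strand is not given in the sources used here, so its reads are uncertain.

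*Fabp7* (ENSMUSG00000019874, chromosome 10, 57784881 to 57788450) had 0.517, 1.93 and 1.20 CPM in wildtype replicates 1, 2 and 3 and 0.900, 0.720 and 1.67 CPM in mutant replicates 1, 2 and 3. Wildtype replicates 1 and 2 were its lowest and highest libraries, so the spread within the wildtype label spanned every value under the mutant label. The log2 fold change was −0.15 (95% interval −1.19 to 0.90, edgeR adjusted p = 0.914). Leaving out wildtype replicate 1 gave −0.52 and leaving out wildtype replicate 2 gave 0.37.

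**Figure D1:**
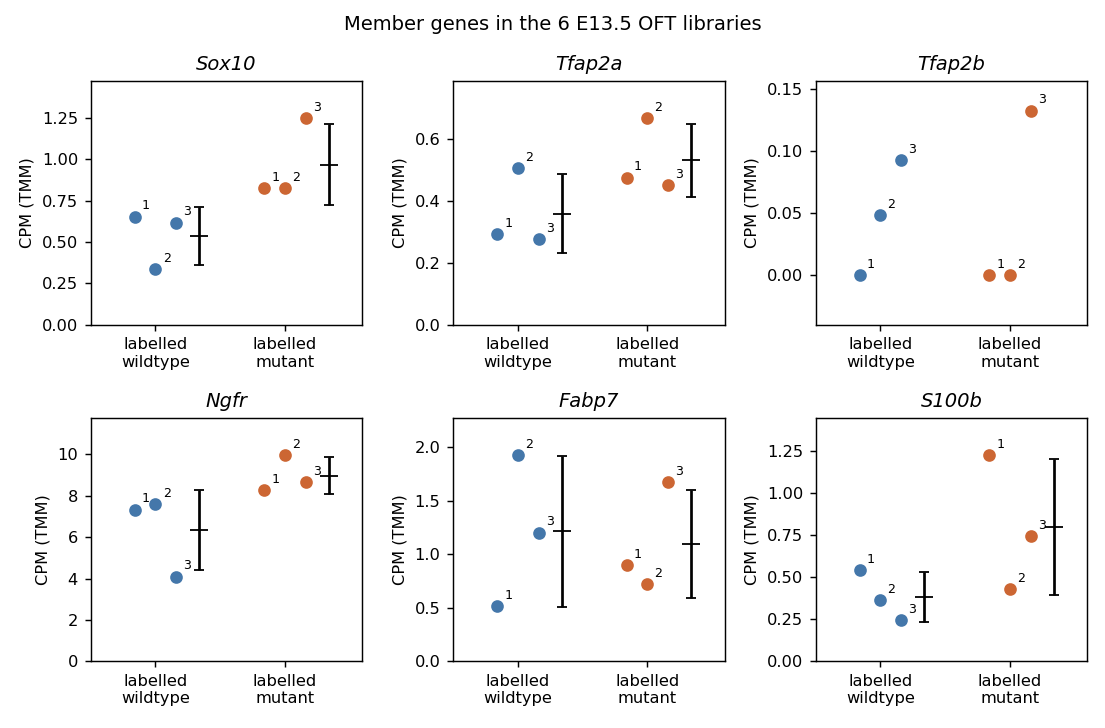
TMM-normalised CPM (vertical axes, a scale for each gene) of the 6 member genes with a row, in libraries labelled wildtype (blue) and mutant (orange). Points are libraries with their replicate numbers, and black bars give the mean ± SD (n = 3, left out for *Tfap2b*). The groups separate for *Sox10* and *Ngfr*, with *Ngfr* of wildtype replicate 3 at 4.10 CPM, and overlap for the others.

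Across the 6 members tested, 0 were called by edgeR at an adjusted p of at most 0.05, where 0.0213% of all genes were called and 0.0178% called as higher. DESeq2's Wald test called 0 of them against 2.64% of all genes, and gave no adjusted p for *Tfap2a* and *Tfap2b*. It gave none for 9830 of the 28157 genes either, and these count as not called in the 2.64%, here and below. An unadjusted p under 0.05 in edgeR's test was found for 2, *Sox10* and *Ngfr*, against 16.1% of all genes, or 8.23% in the same direction. The groups did not overlap for these same genes, both higher under the mutant label, against 19.6% of all genes in either direction and 10.7% in this direction. By an exact two-sided permutation test over libraries each reached p = 0.1, below which 3 libraries against 3 cannot go. With no test applied, 4 of the 6 were higher under the mutant label, as were 51.2% of all genes. The members had a median log2 fold change of 0.52, where that of all genes tested was 0.011.

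Patterns across libraries were compared as the root mean square difference of log2(CPM + 0.5), each gene centred on its own mean over the 6 libraries. This is a description over libraries that share a dissection and a normalisation. Among the members other than *Tfap2b*, *Tfap2a* and *Ngfr* were nearest (0.249), then *Sox10* and *S100b* (0.348), and *Fabp7* and *S100b* were farthest apart (0.638). The limit of 1 CPM used below was not applied here. The added 0.5 shrinks the deviations of genes at low levels, such as *Tfap2a* (0.277 to 0.667 CPM). Of 13133 protein-coding genes averaging 1 CPM or more, the nearest to *Ngfr* were *Rhbdl3*, a rhomboid-like gene (0.0639), *Thbs2*, which encodes a matricellular thrombospondin (0.0806), and *Ptprb*, the vascular endothelial protein tyrosine phosphatase (0.0846). *Thbs2* had 90.7 CPM in wildtype replicate 3 and 131 to 192 CPM in the other libraries, the same low library as *Ngfr*. The nearest to *Fabp7* were *Ccl9*, a chemokine gene (0.161), *Arl5c* (0.162) and *Slc5a7*, the choline transporter gene of cholinergic neurons (0.176). All of these had an adjusted p of at least 0.216 from edgeR's test.

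Other genes of the Schwann precursor and glial programme were looked up as a list of 18. Of these, 13 were higher and 5 lower under the mutant label, with a median log2 fold change of 0.22. Neither tool called any (0 of 18), while 3 reached an unadjusted p under 0.05 in edgeR (2 higher, 1 lower). Among those with a mean of at least 1 CPM, the largest positive values were those of *Egr2*, a transcription factor gene of myelinating Schwann cells, and *L1cam*, an adhesion molecule gene of axons and Schwann cells. *Egr2* had 1.78, 0.988 and 1.20 CPM in the wildtype replicates and 3.00, 1.95 and 2.84 CPM in the mutant replicates (log2 fold change 0.97, edgeR adjusted p = 0.203). *L1cam* had 2.32, 1.71 and 0.801 CPM, and 3.30, 3.23 and 2.47 CPM, in the same order (log2 fold change 0.88, edgeR adjusted p = 0.252). The groups of these genes did not overlap.

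By the same limit, the largest negative values of the glial list belonged to the myelin genes *Mbp* and *Mal*. *Mbp* had 5.96, 11.7 and 17.3 CPM in the wildtype replicates and 4.92, 6.27 and 7.90 CPM in the mutant replicates (log2 fold change −0.86, edgeR adjusted p = 0.248). *Mal* had a log2 fold change of −1.24 with a standard error of 0.60. For these genes wildtype replicate 3 was the highest library, where for *Ngfr* and *L1cam* it was the lowest. *Pmp22*, the most abundant gene of the list, averaged 64.4 ± 8.03 and 72.9 ± 5.06 CPM (SD, n = 3 each). *Erbb3* had a log2 fold change of 0.37, with overlapping groups, and 0.65 without wildtype replicate 1. *Gfra3* and *Lgi4* were at 0 reads in at least 1 library. In the fit without wildtype replicate 1, 4 of 17 tested were called, *Egr2* (1.25), *L1cam* (1.23) and *Erbb3* as higher and *Mbp* (−1.183) as lower, against 9.45% of all genes.

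Transcription factor genes that specify the crest and its border were higher in 14 of 14 tested, where 51.2% of all genes were higher. Their median log2 fold change was 0.39, and *Pax7* had no row. At a mean of at least 1 CPM, genes of this list followed the library order of the mesenchymal markers given below. The part of mesenchyme in their values was not tested. The count of 14 includes *Pax3* and *Zic1*, with 14 and 61 reads over all libraries. None was called by edgeR (0 genes), 4 had an unadjusted p under 0.05, and DESeq2 called 2 of them, *Snai1* (adjusted p = 0.0366) and *Msx1* (adjusted p = 0.0289), against 2.64% of all genes. *Sox9*, a *Sox10* relative of crest, cartilage and valve mesenchyme, had 57.1, 25.6 and 19.0 CPM in wildtype replicates 1, 2 and 3 and 76.7, 64.0 and 52.7 CPM in the mutant replicates. Its log2 fold change was 0.92 (SE 0.32, edgeR adjusted p = 0.235), and wildtype replicate 1 lay above mutant replicate 3. *Snai1*, a gene of epithelial to mesenchymal transition, had 9.03 ± 4.10 CPM and 17.1 ± 4.16 CPM (SD, n = 3 each) with a log2 fold change of 0.91. The authors also list *Snai1* as required for the endocardial cushions. *Msx1* and *Twist1* had log2 fold changes of 0.84 and 0.65. *Sox8*, the third gene of the *Sox10* subfamily, had 2.18 ± 0.788 and 3.25 ± 0.825 CPM (SD, n = 3 each) with overlapping groups. The most abundant gene, *Id2*, had a log2 fold change of 0.14. *Pax3* had 0.345 CPM in mutant replicate 3 and at most 0.0308 CPM in each other library, and *Zic1* was at 0 reads in wildtype replicate 1. Without wildtype replicate 1, edgeR called 6 of the 14 as higher, against 4.15% of all genes in that fit. Their log2 fold changes were then 1.53 for *Sox9*, 1.32 for *Snai1*, 1.17 for *Msx1*, 1.06 for *Msx2*, 1.05 for *Twist1* and 0.88 for *Snai2*, and the median of the list was 0.86.

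**Figure D2:**
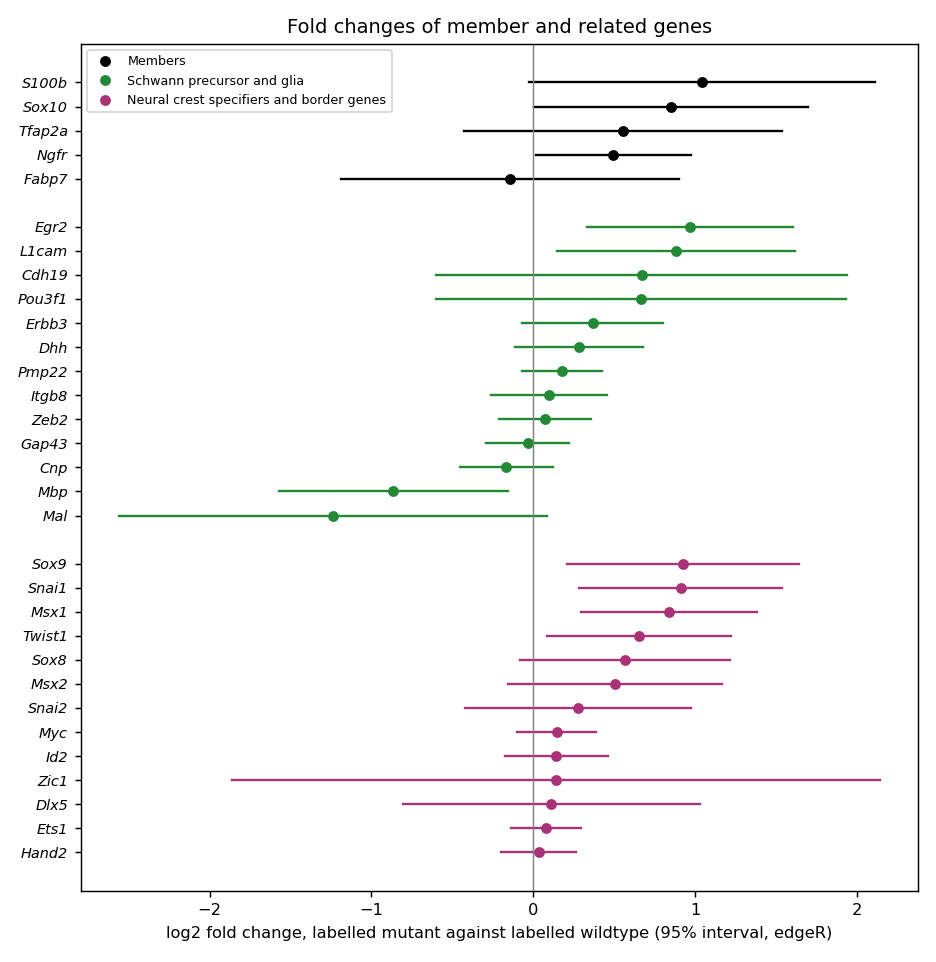
Log2 fold change between the libraries labelled mutant and wildtype (horizontal axis) with its 95% interval from edgeR, for members (black), glial genes (green) and crest specifiers (purple) with at least 60 reads over the libraries, 1 glial gene left out. Intervals are wide for *S100b* (−0.029 to 2.11) and *Fabp7* (−1.19 to 0.90), and *Mbp* and *Mal* lie left of 0.

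Signals and receptors of crest and glia gave 7 higher and 4 lower of 11 genes (median log2 fold change 0.22), with 0 called by edgeR or DESeq2 and 4 at an unadjusted p under 0.05. *Ret* and *Gfra1*, which encode the GDNF receptor and its co-receptor, had log2 fold changes of 0.89 and 0.75. The endothelin receptor gene *Ednrb* had 53.5, 85.7 and 143 CPM in the wildtype replicates and 40.5, 25.8 and 79.3 CPM in the mutant replicates (log2 fold change −0.95, edgeR adjusted p = 0.282). The groups of *Ednrb* overlapped, and its highest value was again in wildtype replicate 3. *Cxcl12*, a chemokine gene and the most abundant of the list, had a log2 fold change of 0.22. Without wildtype replicate 1, edgeR called 2 of the 11, *Kitl* (0.69) and *Gfra1* (1.1795), both as higher, against 4.15% of all genes.

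Ligands and partners of p75 gave 9 higher and 3 lower of 12 genes (median 0.14), with 0 called by either tool and 2 at an unadjusted p under 0.05. The neurotrophin receptor genes *Ntrk2* and *Ntrk3* had the largest log2 fold changes among those with a mean of at least 1 CPM. *Ntrk2* had 15.6, 7.73 and 3.45 CPM in the wildtype replicates and 19.99, 23.5 and 10.5 CPM in the mutant replicates (log2 fold change 1.00, standard error 0.43, edgeR adjusted p = 0.296). *Ntrk3* had 11.3, 5.83 and 2.25 CPM, and 13.1, 18.3 and 6.29 CPM (log2 fold change 0.94, standard error 0.48). *Bex3*, which encodes a p75-binding protein, had 261 to 302 CPM under the wildtype label and 227 to 245 CPM under the mutant label, groups that did not overlap (log2 fold change −0.27, edgeR adjusted p = 0.250). *Maged1*, the most abundant partner, had a log2 fold change of 0.14. Without wildtype replicate 1, edgeR called 2 of the 12, *Ntrk2* as higher (1.67) and *Bex3* as lower (−0.33), against 9.45% of all genes.

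Of the AP-2 family and partners, 3 genes were higher and 2 lower of 5 tested (median 0.061), and *Tfap2d* had no row. Both tools called 0, as did edgeR without wildtype replicate 1, while 2 reached an unadjusted p under 0.05. The AP-2 inhibitor gene *Kctd15* had 18.2 ± 4.40 and 25.8 ± 5.56 CPM (SD, n = 3 each; log2 fold change 0.50), and its relative *Kctd1* 16.8 ± 2.96 and 13.4 ± 1.69 CPM (log2 fold change −0.32). *Tfap2c* and *Tfap2e* had means of 0.0403 and 0.0338 CPM, with no reads in some libraries. Among other relatives of the members, *Fabp3*, the heart-type fatty acid binding protein gene, had 104 ± 25.4 and 68.1 ± 9.65 CPM (SD, n = 3 each; log2 fold change −0.61). *S100a1*, the S100 gene of cardiac muscle, had a log2 fold change of −0.48, where *S100b* had 1.04. *Fabp3* was called by DESeq2 (adjusted p = 0.0285) and by edgeR neither was (adjusted p = 0.194 and 0.227). *Fabp5*, the most abundant relative, had a log2 fold change of −0.23. Over the relatives edgeR called 4 of 15 without wildtype replicate 1, 1 as higher and 3 as lower, against 9.45% of all genes.

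Over the 5 lists together, 46 of 60 genes tested were higher and 14 lower, where 51.2% of all genes were higher, and 0 were called by edgeR. An unadjusted p under 0.05 was found for 15 of the 60 and groups that did not overlap for 5, shares to be read against the 16.1% and 19.6% of all genes above.

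Markers of other cell types in the tract were looked up beside the members. All 10 myocardial markers were lower under the mutant label (median −0.49), with a summed level of 25180 to 34480 CPM under the wildtype label and 17370 to 24580 CPM under the mutant label. Of these edgeR called 0 and DESeq2 3, *Myh7*, *Tnnt2* and *Tnni3*, which encode sarcomere proteins, against 2.64% of all genes by DESeq2. An unadjusted p under 0.05 in edgeR was found for 7, against 16.1% of all genes. All 6 mesenchymal markers were higher (median 0.58), with sums of 4057 to 7916 and 7344 to 9412 CPM. Of these edgeR called 0 and DESeq2 1, the collagen gene *Col1a1*, and 4 had an unadjusted p under 0.05, beside the same shares of all genes. Without wildtype replicate 1, edgeR called 4 of the 10 myocardial markers as lower and 6 of the 6 mesenchymal markers as higher, with list medians of −0.57 and 0.90. In that fit 9.45% of all genes were called, and 4.15% called as higher. In wildtype replicate 3, where *Ngfr* was lowest, the mesenchymal markers were lowest and the myocardial markers highest of the 6 libraries. The crest specifiers followed the same order of libraries, from a median deviation of −0.74 (log2) in wildtype replicate 3 to 0.42 in mutant replicate 2. In wildtype replicate 1 the medians were 0.30 for mesenchymal markers and 0.17 for crest specifiers. In wildtype replicate 2 they were −0.48 and −0.40. Leaving out wildtype replicate 1 therefore widens the difference between labels for both lists. The glial list varied less, from −0.29 in wildtype replicate 3 to 0.094 in wildtype replicate 2. The part of these cell types in the values of the members was not tested. In the fit with the myocardial covariate *Sox10* was 1.15, *S100b* 1.01, *Fabp7* 0.22, *Tfap2a* 0.20 and *Ngfr* 0.21 (edgeR adjusted p from 0.6966 to 0.9719). That covariate was 10.24 to 10.82 (log2 CPM) under the wildtype label and 9.536 to 10.39 under the mutant label. It differs with the label, so the fit cannot separate them.

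Neuronal markers gave 9 higher and 3 lower of 12 (median 0.14), with sums of 16.2 to 37.2 CPM under the wildtype label and 33.9 to 50.4 CPM under the mutant label. *Tubb3*, a neuronal tubulin gene, had 9.67, 6.65 and 4.56 CPM in the wildtype replicates and 18.5, 18.3 and 14.6 CPM in the mutant replicates (log2 fold change 1.29, edgeR adjusted p = 0.128). It was the 1 gene of the list that DESeq2 called, against 2.64% of all genes. The edgeR fit without wildtype replicate 1 likewise called 1 of the 12, against 9.45% of all genes. Other neuronal genes had values of the opposite sign. *Elavl3*, an RNA-binding protein gene of neurons, had a log2 fold change of −0.73 (edgeR adjusted p = 0.478), with 3.89 CPM in wildtype replicate 1 and 0.924 to 1.63 CPM in the other libraries. *Th*, the tyrosine hydroxylase gene of catecholamine synthesis, chosen after its values were seen, had 0.698 ± 0.414 and 0.234 ± 0.0948 CPM (SD, n = 3 each) and a log2 fold change of −1.57 (edgeR adjusted p = 0.238). Melanocytes also derive from the crest and express *Sox10*. Their markers gave 2 higher and 3 lower of 5 tested (median −0.022), with sums of 41.3 to 48.3 and 30.6 to 49.6 CPM, and with 0 called by either tool or without wildtype replicate 1. *Mitf*, the most abundant of them, had a log2 fold change of −0.22. *Dct* had 5.01 CPM in mutant replicate 3 and 0.374 to 2.095 CPM in the other libraries, and mutant replicate 3 was also the highest library for *Sox10*. Epithelial markers, among which AP-2 genes are also expressed, gave 1 higher and 9 lower of 10 (median −0.29), with sums of 33.2 to 45.0 and 28.9 to 34.2 CPM, and *Esrp1* at 0 reads in 1 library. Both tools called 0 of the 10, and edgeR called 1 as lower without wildtype replicate 1, against 9.45% of all genes in that fit. *Krt18*, a keratin gene and the most abundant of them, had 24.2 ± 3.74 and 18.7 ± 1.15 CPM (SD, n = 3 each) in groups that did not overlap (log2 fold change −0.37, edgeR adjusted p = 0.234). Whether neurons, melanocytes or epithelium contribute to the values of the members was not tested.

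**Figure D3:**
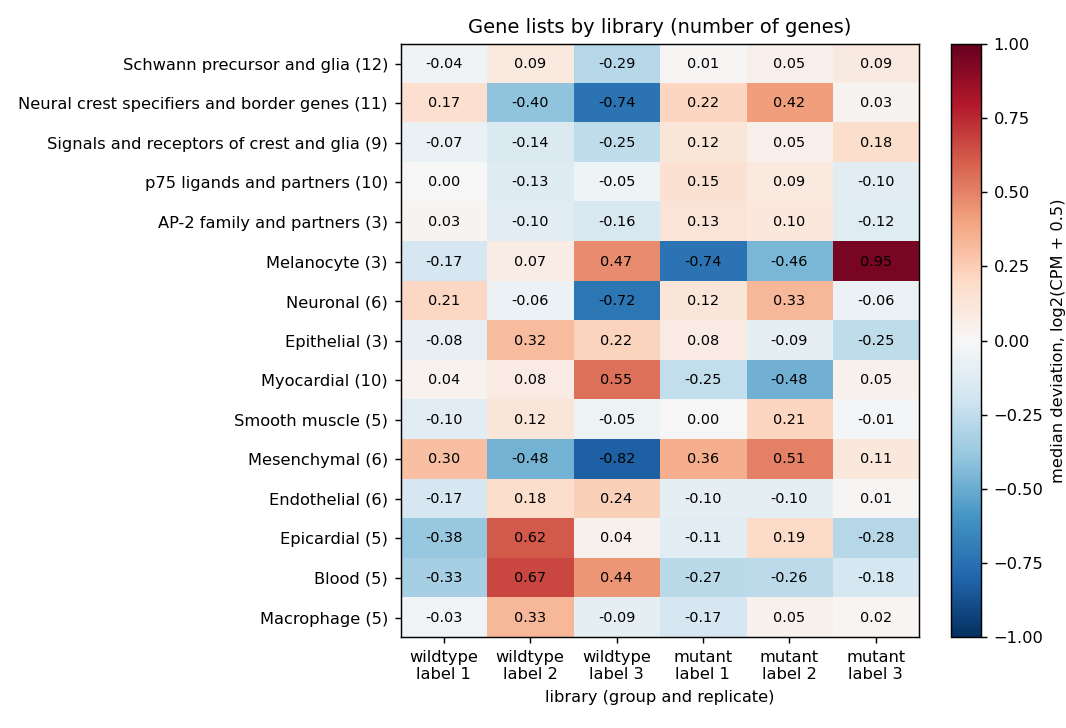
Median deviation of log2(CPM + 0.5) from the 6-library mean, over the genes of each list with a mean of at least 1 CPM (rows, number of genes in brackets), by library (columns). Mesenchymal genes and crest specifiers are lowest in wildtype replicate 3 (−0.82 and −0.74), where myocardial genes are highest (0.55), and melanocyte genes are highest in mutant replicate 3 (0.95).

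The direction of the members was then compared over the 16 other ways of processing. *Sox10*, *S100b*, *Tfap2a* and *Ngfr* had a positive value in each of them and none was called in any. All of these settings refit the same libraries, so a shared sign is not independent of the main test. *Sox10* ranged from 0.60 to 1.15, with an adjusted p from 0.166 to 0.697, and *Ngfr* from 0.21 to 0.64, with an adjusted p from 0.0793 to 0.905 (edgeR and DESeq2). *S100b* ranged from 0.59 to 1.37 and *Tfap2a* from 0.20 to 0.89. *Fabp7* took either sign, from −0.58 to 0.37.

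**Figure D4:**
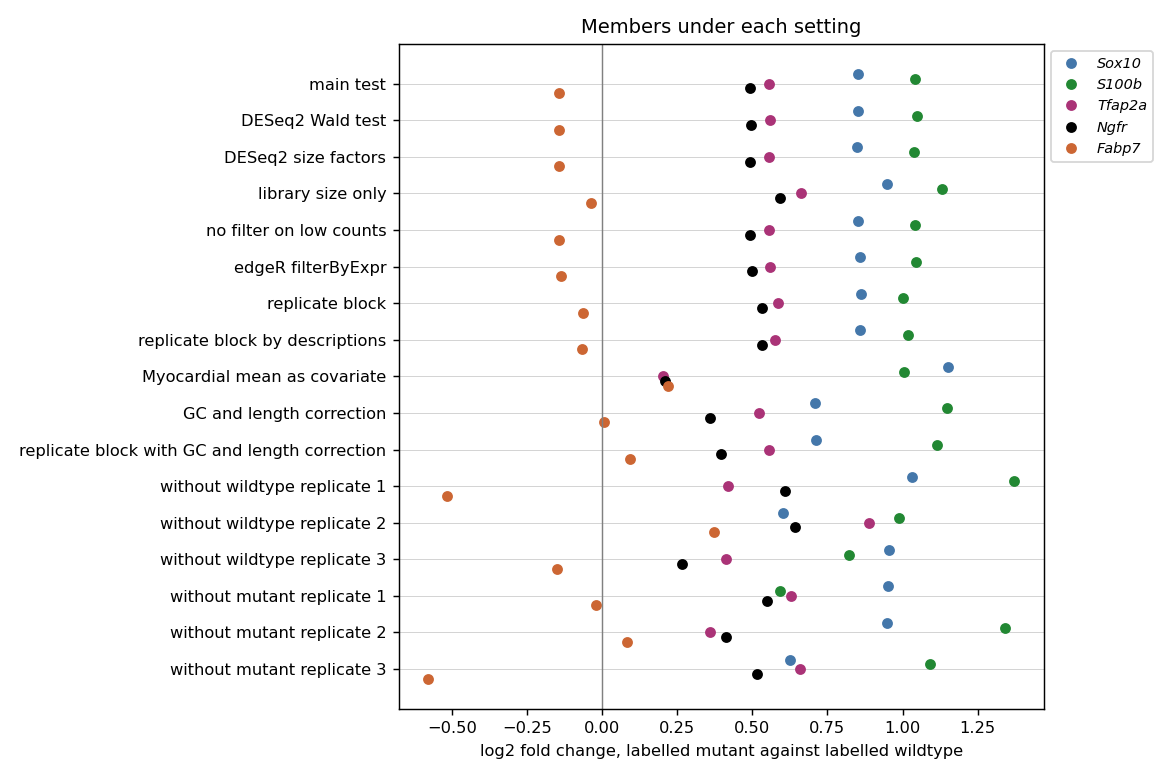
Log2 fold change of 5 members (horizontal axis) in the main test and under each of the 16 alternatives (rows). *S100b* (0.59 to 1.37), *Sox10* (0.60 to 1.15), *Tfap2a* and *Ngfr* lie right of 0 in every row, with their order changing between settings, and *Fabp7* lies on both sides of 0.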

How the data were processed

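RNA-Seq was performed by the authors on 6 libraries of E13.5 OFT, 3 per label. Reads were trimmed, aligned to mm10 with TopHat2 2.1.0 and Bowtie2, and counted on exons with GenomicAlignments. The annotation release and strand setting are not given in the sources used here. The values the authors deposited are raw counts per gene. The authors tested them with DESeq2 1.26.0, and those results were not used here. The smallest gene sum in the table was 5 reads.

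The counts were tested with edgeR 4.0.16 (R 4.3.3). Genes with more than 5 reads over all libraries were kept, normalised by TMM and tested with the quasi-likelihood test (no covariate, Benjamini-Hochberg adjustment over 28157 genes, adjusted p of at most 0.05). DESeq2 1.42.0 was an alternative. Positions, exon lengths and overlaps came from GENCODE M21 (GRCm38), which holds 28723 of the identifiers, and promoters from RefSeq. Precision at low counts is limited by counting. The code was tested on simulated data, with changes placed only in genes of higher counts than every member but *Ngfr*. That test does not cover the low counts of the other members.

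The members and gene lists were chosen with earlier results of these data known. Genes were named by a rule that allows, from each list, at most the 2 largest increases and 2 largest decreases at a mean of at least 1 CPM, the most abundant gene and any gene called. Not every gene it allows is named, and genes outside it are markers at or near 0, family relatives and those said to be chosen after their values were seen. Lists covered members, 5 related groups, family relatives, and melanocyte, neuronal, epithelial, myocardial, smooth muscle, mesenchymal, endothelial, epicardial, blood and macrophage markers. Alternatives covered scaling, filters, DESeq2, blocks, a myocardial covariate, a correction for GC content and length, and each library left out. Values of some listed genes are not reported here, though list counts include them.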

Additional observations from a re-analysis of the deposited data

How the results depend on the processing

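The 6 calls over all genes became 742 with DESeq2's Wald test and 1 to 2593 with a library left out, the highest without wildtype replicate 1. With a replicate block on the numbers of the titles there were 1577 calls, with the numbers of the descriptions 83, and with the title block and the GC and length correction 2219. Of the related genes, DESeq2 called 2, these blocks 14, 2 and 13, and the fits with a library left out 0 to 14. The members called stayed at 0 in every setting. *Fabp7* changed sign with the myocardial covariate (0.22), the GC and length correction (0.0057), the block with that correction (0.0905), without wildtype replicate 2 (0.37) and without mutant replicate 2 (0.08), with −0.58 to 0.37 over the libraries left out, and the cause was not tested. Whether the numbers of the titles pair the libraries is not settled by these values. Same-numbered libraries correlated at 0.096, 0.159 and 0.42 in their deviations from the group means. Wildtype replicates 2 and 3 correlated best with the mutant replicate of the same number, and wildtype replicate 1 with mutant replicate 2 (0.277). Scaling by library size only moved the median of all genes from 0.011 to 0.11. Low read counts limit every member but *Ngfr*.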

Other observations

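Further marker lists were looked up in the same fit. Blood markers were lower under the mutant label in 5 of 5 (median log2 fold change −0.56), with sums of 3050 to 6255 CPM under the wildtype label and 3270 to 3403 CPM under the mutant label. Endothelial markers were lower in 6 of 6 (median −0.11), epicardial markers in 3 of 5 (median −0.20) and macrophage markers in 3 of 5 (median −0.11). Smooth muscle markers were higher in 3 of 5 (median 0.085). The family relatives of the members gave 9 higher and 7 lower of 16 (median 0.12). None of these lists held a gene called by edgeR (0 genes). An unadjusted p under 0.05 in edgeR was found for 4 blood, 3 smooth muscle, 5 relatives and 0 endothelial, epicardial or macrophage genes, against 16.1% of all genes. DESeq2 called 1 blood gene, *Hbb-y*, 1 smooth muscle gene, *Myh11*, and 1 relative, *Fabp3*, against 2.64% of all genes. Without wildtype replicate 1, edgeR called 4 of the blood markers as lower, 1 smooth muscle marker as higher, 1 endothelial marker as lower and 0 epicardial or macrophage markers. In that fit 9.45% of all genes were called.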
